A study of Mus musculus with 6 samples.

Results

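The genes described here encode the 3 TGF-β ligands, their receptors, and membrane proteins that modulate the receptors. The members were named in advance as Tgfb1, Tgfb2, Tgfb3, Tgfbr1, Tgfbr2, Tgfbr3, Eng, Acvrl1, Pmepa1 and Bambi, and rows of the expression table were taken by exact symbol. Of these 10 genes, 9 had a row among the 19730 rows of the table. Eng, which encodes the coreceptor endoglin, was matched neither by symbol nor by transcript identifier and was not analysed here. RNA-Seq was performed on primary mouse mesangial cells, which support the capillaries of the kidney glomerulus and can contract. There were 3 Control libraries and 3 libraries from cells given TGF-β1 at 10 ng/ml for 72 h. Cells of both groups were of passage 3 to 6 and grew in DMEM with 25.5 mM glucose and 20% fetal bovine serum, so the Control cells also had high glucose and serum. The samples were collected in triplicate, but separate cultures or animals are not stated, and p-values below therefore measure the spread between these samples, which may be technical.

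TGF-β is secreted as a latent dimer that must be released before it can signal. The active ligand binds the type II receptor TGFBR2, which recruits and phosphorylates the type I receptor TGFBR1, and TGFBR1 in turn phosphorylates SMAD2 and SMAD3. ACVRL1 (ALK1) is a type I receptor best known from endothelium that signals through SMAD1 and SMAD5, while TGFBR3 (betaglycan) and endoglin present ligand to the signalling receptors. In mesangial cells the pathway is known for driving matrix accumulation.

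Expression is given as FPKM, the fragments per kilobase of transcript per M (mega) mapped fragments, which allows levels of different genes to be compared within a library. Depth, recovered from the smallest FPKM steps, was 10.1 to 10.9 M fragments per library. At this depth the members rested on about 69 to 16628 fragments per library, apart from Bambi, with about 4 to 16, and Acvrl1, with at most about 30. Changes are differences of mean log2(FPKM + 1), a scale on which low genes appear to change less than they do, and a gene was called changed at a limma adjusted p under 0.05. Deviations from the group mean correlated by 0.23 between both replicate 2 libraries (Pearson, 11898 genes), and by -0.19 to 0.12 in other pairs of a Control and a treated library. Spearman's rho between deviation and transcript GC content was -0.39 in TGF-β1 replicate 2, the farthest from 0 of the 6 libraries. These values describe the libraries, since genes are not independent replicates.

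TGF-β1 treatment raised all 3 ligand genes and Pmepa1, and lowered Tgfbr1, Tgfbr2 and Tgfbr3. Of the 9 genes with a row, 7 passed the filter of a mean FPKM of at least 1, and these 7 were at 1 FPKM or more in every library. All 7 were called, 4 up and 3 down, where 48.1% of the 11898 tested genes were called (24.5% up and 23.6% down). Control and treated libraries were separate for each of the 7, as they were for 59.4% of tested genes. The median log2 change of the 7 was 0.63, beside -0.02 over all tested genes. Acvrl1 and Bambi lay under the filter and were read from the same test without it, in which 30.5% of the 19730 rows were called. There Acvrl1 was called and Bambi was not.

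**Figure D1:**
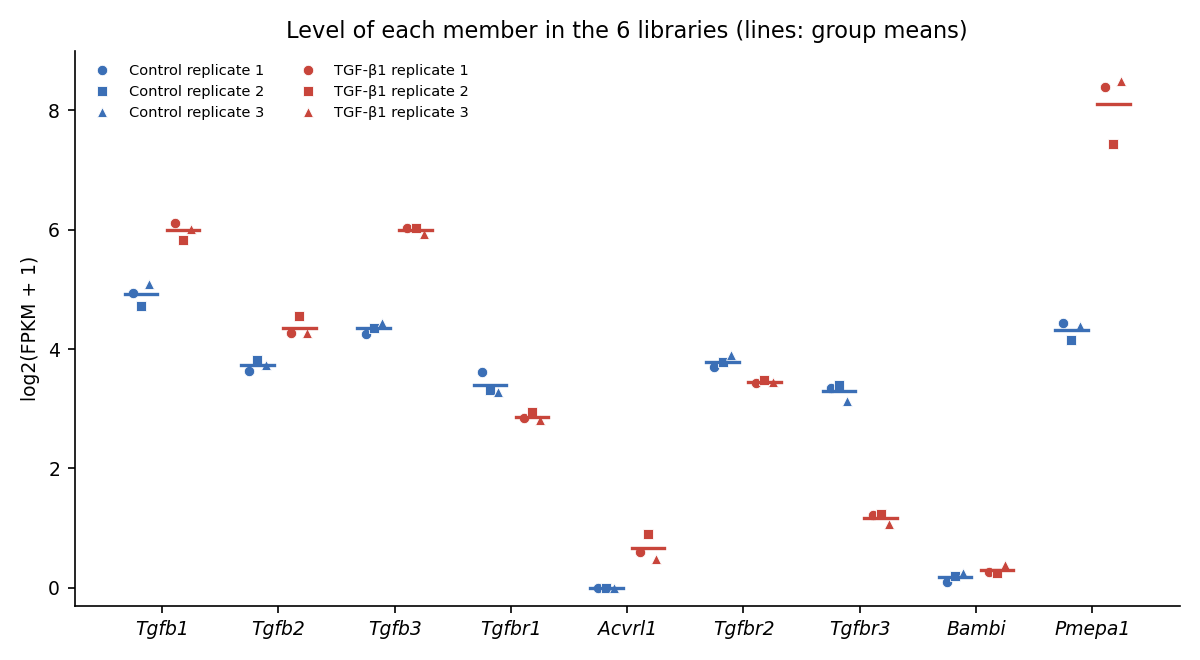
Level of each of the 9 members as log2(FPKM + 1) in the 3 Control libraries (blue) and the 3 TGF-β1 libraries (red), with the marker shape giving the replicate number and lines the group means. The groups are separate for every member but Bambi, and TGF-β1 replicate 2 lies below the other 2 treated libraries for Pmepa1.

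The ligand genes were examined first. Tgfb1 (mm9 chromosome 7, 26472021 to 26490096, plus strand) encodes the protein that was added to the cells. It was at 29.5, 25.4 and 33.2 FPKM in Control replicates 1 to 3 and at 68.5, 56.1 and 63.8 FPKM in TGF-β1 replicates 1 to 3. Every treated library was above every Control library, and replicate 2 was the lowest of both groups. The group means were 29.4 ± 3.91 and 62.8 ± 6.26 FPKM (SD, n = 3), which is 2.14-fold (log2 change 1.07, SE 0.13, adjusted p by limma 8.81e-04). After a correction for GC content and transcript length the log2 change was 1.31. It was 0.88 with each library rescaled by its summed FPKM over protein-coding transcripts of at least 300 nt. These were the largest and smallest values over the alternatives tried. The Tgfb1 transcript has a GC content of 62.5%.

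Tgfb2 (chromosome 1, 188447065 to 188529871, minus strand) was at 11.4, 13.1 and 12.3 FPKM without treatment and at 18.2, 22.5 and 18.2 FPKM after TGF-β1. Its groups were also separate, and here replicate 2 was the highest of both groups. The means of 12.3 ± 0.812 and 19.7 ± 2.49 FPKM gave the smallest ligand change, 0.63 on the log2 scale (SE 0.11, adjusted p by limma 0.00430). The gene overlaps a small nucleolar RNA gene on the opposite strand.

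Tgfb3 (chromosome 12, 87397694 to 87419991, minus strand) changed most of the ligands. It was at 18.1, 19.4 and 20.7 FPKM in Control and at 64.4, 64.6 and 60.1 FPKM with TGF-β1. The replicates were close together in each group, with a coefficient of variation of 6.88% and 4.06%. The mean rose 3.25-fold, from 19.4 ± 1.34 to 63.0 ± 2.56 FPKM (log2 change 1.65, SE 0.08, adjusted p by limma 3.62e-05), and 2.74% of tested genes had a larger increase.

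Because the ligands were raised unequally, their proportions were compared within each library, a measure that does not depend on scaling between libraries. These proportions were not corrected for transcript GC content, which was 62.5, 47.5 and 53.0% for Tgfb1, Tgfb2 and Tgfb3. The sum of the 3 ligand genes, which does depend on scaling, was 61.0 ± 4.52 FPKM in Control and 145 ± 4.90 FPKM with TGF-β1. The Tgfb3 share of this sum was 30.6, 33.6 and 31.3% in Control libraries, and 42.6, 45.1 and 42.3% in treated ones, a difference of 11.5 percentage points. The Tgfb2 share was 19.4, 22.6 and 18.6% in Control libraries, and 12.0, 15.7 and 12.8% in treated ones, a difference of -6.64 percentage points. Both measures separated the groups, with an exact two-sided permutation p of 0.1, the smallest that 3 against 3 allows, and an adjusted p of 0.167 over the 5 measures of this kind. The Tgfb1 share was 50.03, 43.8 and 50.1% in Control libraries, and 45.3, 39.2 and 44.9% in treated ones, and these ranges overlapped (exact permutation p = 0.3, adjusted p 0.3). Tgfb1 was thus the highest ligand gene in every Control library. In treated cells Tgfb1 and Tgfb3 were at 62.8 and 63.0 FPKM on average, a gap within the spread of the replicates.

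**Figure D2:**
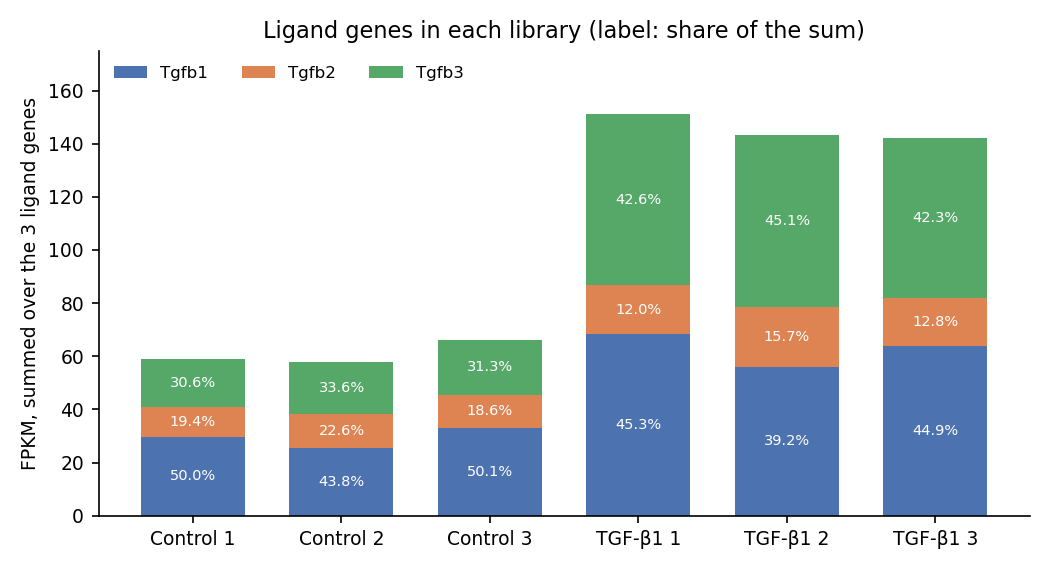
FPKM of Tgfb1, Tgfb2 and Tgfb3 stacked for each library, with the share of the sum printed in each segment. The sum is 57.9 to 66.2 FPKM in Control and 142 to 151 FPKM with TGF-β1, and the Tgfb3 segment holds at most 33.6% in Control and at least 42.3% in treated libraries.

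The sequences before the start sites of the called genes were inspected for letters bound by SMADs and AP-1, with promoters taken from RefSeq (GRCm38.p6). Entries were matched for 5 of the 10 members, Tgfb1, Tgfb2, Tgfbr1, Tgfbr2 and Eng. The 250 bases before the start are shown for the 3 called members with the largest changes among these, since Tgfb1 and Tgfb2 rose together and Tgfbr1 fell. Of the 2 starts listed for Tgfbr1, the first is shown. The motifs searched, on both strands, were the palindromic SMAD element GTCTAGAC, the SMAD box CAGACA, the AP-1 element TGANTCA (N is any base) and the GC-rich SMAD element GGCGCC, and matches are in capitals.
Tgfb1 (chr7:25686752-25687001, plus strand): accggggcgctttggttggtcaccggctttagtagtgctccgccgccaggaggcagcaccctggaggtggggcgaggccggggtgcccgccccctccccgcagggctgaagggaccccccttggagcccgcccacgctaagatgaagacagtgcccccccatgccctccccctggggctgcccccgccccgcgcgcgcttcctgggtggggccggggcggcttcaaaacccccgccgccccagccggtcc
Tgfb2 (chr1:186705990-186706239, minus strand): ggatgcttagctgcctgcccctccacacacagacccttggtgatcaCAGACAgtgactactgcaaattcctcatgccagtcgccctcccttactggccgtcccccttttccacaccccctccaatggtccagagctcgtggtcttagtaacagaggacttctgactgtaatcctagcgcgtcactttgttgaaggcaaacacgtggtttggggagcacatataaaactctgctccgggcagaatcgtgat
Tgfbr1 (chr4:47352972-47353221, plus strand): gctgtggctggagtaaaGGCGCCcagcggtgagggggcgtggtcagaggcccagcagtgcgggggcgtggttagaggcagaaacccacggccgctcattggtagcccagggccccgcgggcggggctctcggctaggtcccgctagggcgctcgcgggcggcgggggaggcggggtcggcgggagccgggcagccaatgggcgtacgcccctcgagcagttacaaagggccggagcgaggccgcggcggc

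The Tgfb1 window held none of the 4 motifs, the Tgfb2 window held 1 CAGACA and the Tgfbr1 window shown held 1 GGCGCC. The window before the second Tgfbr1 start, which is not shown, held 1 CAGACA and none of the other motifs. The window of Tgfbr2, also called and not shown, held none of the 4. Pmepa1, Tgfbr3 and Tgfb3, which changed most of the members, had no promoter entry and were not searched. Among 32851 mouse promoter windows of the same length, 17.1% held CAGACA, 9.59% held GGCGCC, 6.75% held TGANTCA and 0.167% held GTCTAGAC. Each of the 3 windows shown matched mm9 once on its chromosome, for Tgfb1 at 26471771 to 26472020, directly before the annotated gene. GC content was 75.2, 53.6 and 74.8% in the Tgfb1, Tgfb2 and Tgfbr1 windows. A match is a run of letters and not a measured binding site.

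Tgfbr1 and Tgfbr2 were lower after treatment, while Acvrl1 was higher. Tgfbr1 (chromosome 4, 47366094 to 47427803, plus strand), the type I receptor that activates SMAD2 and SMAD3, was at 11.2, 8.96 and 8.70 FPKM in Control and at 6.18, 6.73 and 6.04 FPKM with TGF-β1. Each treated library was below each Control library, among which replicate 1 was the highest. The mean fell 1.52-fold, from 9.62 ± 1.37 to 6.32 ± 0.366 FPKM (log2 change -0.53, SE 0.11, adjusted p by limma 0.01005).

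Tgfbr2 (chromosome 9, 115993415 to 116084383, minus strand), the receptor that binds ligand first, had the smallest called change of the members. It was at 11.9, 12.7 and 13.95 FPKM in Control and at 9.85, 10.2 and 9.86 FPKM with TGF-β1. The groups did not overlap, and the treated libraries varied by only 2.19%. The mean fell 1.29-fold, from 12.9 ± 1.01 to 9.98 ± 0.219 FPKM (log2 change -0.33, SE 0.08, adjusted p by limma 0.0181). This call was lost without Control replicate 2 (adjusted p 0.0508), without TGF-β1 replicate 1 (0.0674), without TGF-β1 replicate 3 (0.0618) and within replicates 1 and 3 alone (0.0843), and over all alternatives it was 0.00652 to 0.0843. The FPKM of Tgfbr2 was 1.36 ± 0.272 times that of Tgfbr1 in Control and 1.58 ± 0.0568 times with TGF-β1. These ranges overlapped (exact permutation p = 0.3 on the log2 ratio, adjusted p 0.3).

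Acvrl1 (chromosome 15, 100958953 to 100975767, plus strand), the other type I receptor, had a listed value of 0 in all 3 Control libraries and of 0.507, 0.878 and 0.399 FPKM in TGF-β1 replicates 1 to 3. The treated values correspond to about 19, 30 and 15 fragments. No fold is given against a listed 0. Without the filter its limma adjusted p was 0.00723, and it stayed under 0.05 in the alternatives tried, at 0.00148 to 0.0401. Acvrl1 made up 7.59, 11.5 and 6.20% of the summed FPKM of Acvrl1 and Tgfbr1 in treated libraries (exact permutation p = 0.1, adjusted p 0.167). Its share was 0 in Control because its listed values were 0. Any 3 treated values above 0 would give this p, so the test adds nothing to those values. The gene has 12 annotated transcripts and overlaps Gm16031 on the opposite strand, and the study ranked it among its top upregulated genes on these same samples, so its direction here is not independent evidence. Of 12 endothelial markers, 10 had a row and all 10 were under 1 FPKM in every library. Their summed FPKM was 1.51 to 1.85 in Control and 1.197 to 2.32 with TGF-β1, and Cdh5, Kdr and Erg had a listed value of 0 throughout Control and reached at most 0.0318 FPKM with TGF-β1. In the test without the filter, Flt1 rose as Acvrl1 did, from 0.357 ± 0.0504 to 0.637 ± 0.0691 FPKM (adjusted p by limma 0.0296), with no overlap between the groups. Vwf fell from 0.465 ± 0.0723 to 0.222 ± 0.0922 FPKM (adjusted p by limma 0.0498), and Plvap fell from 0.184 ± 0.0305 to 0.0339 ± 0.0587 FPKM (adjusted p by limma 0.0407). Flt1 rested on about 24, 24 and 29 fragments in Control and 45, 39 and 51 with TGF-β1. Vwf rested on about 9, 9 and 6 against 2, 3 and 6. Plvap had about 3, 4 and 4 against 0, 0 and 2, so it and Vwf were near the limit of detection. The other 7 endothelial markers were not called, in a test where 30.5% of all rows were called. The part of endothelial cells in the Acvrl1 result was not tested.

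Tgfbr3 (chromosome 5, 107535589 to 107718648, minus strand), the coreceptor betaglycan, had the largest decrease of the members. It was at 9.19, 9.50 and 7.79 FPKM in Control and at 1.33, 1.36 and 1.10 FPKM with TGF-β1, with a wide gap between the groups. The mean fell 6.98-fold, from 8.83 ± 0.911 to 1.26 ± 0.141 FPKM (log2 change -2.12, SE 0.11, adjusted p by limma 4.69e-05). Only 1.56% of tested genes had a larger decrease on this scale. A pseudogene, Gm8145, overlaps it on the opposite strand. Among tested genes Tgfbr3 moved from the 41.0th to the 7.001th percentile of expression. In bulk samples, fewer cells of a type and less RNA per cell cannot be told apart.

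Bambi (chromosome 18, 3507955 to 3516402, plus strand), a decoy that resembles a type I receptor without a kinase, was near the limit of detection. It was at 0.0749, 0.1498 and 0.192 FPKM in Control and at 0.207, 0.184 and 0.305 FPKM with TGF-β1, or about 4, 8 and 10 fragments against 11, 9 and 16. The ranges overlapped, since TGF-β1 replicate 2 was under Control replicate 3. The log2 change was 0.11 (SE 0.06, adjusted p by limma 0.248 without the filter), so a difference was not detectable at this depth.

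Pmepa1 (chromosome 2, 173049959 to 173102034, minus strand), a membrane protein that binds SMAD2 and SMAD3 and dampens the signal, changed most of all members. It was at 20.6, 16.8 and 19.9 FPKM in Control and at 335, 172 and 359 FPKM with TGF-β1. All treated libraries were far above all Control libraries, and TGF-β1 replicate 2 was well below the other 2, giving a coefficient of variation of 35.3% in treated cells against 10.6% in Control. The mean rose 15.1-fold, from 19.1 ± 2.02 to 288 ± 102 FPKM (log2 change 3.78, SE 0.28, adjusted p by limma 1.65e-04). The log2 change was 4.12 without TGF-β1 replicate 2 and 4.03 within replicates 1 and 3. Only 32 of the 11898 tested genes had a larger increase. The study also listed Pmepa1 as upregulated on these same samples, so its direction here is not independent evidence.

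**Figure D3:**
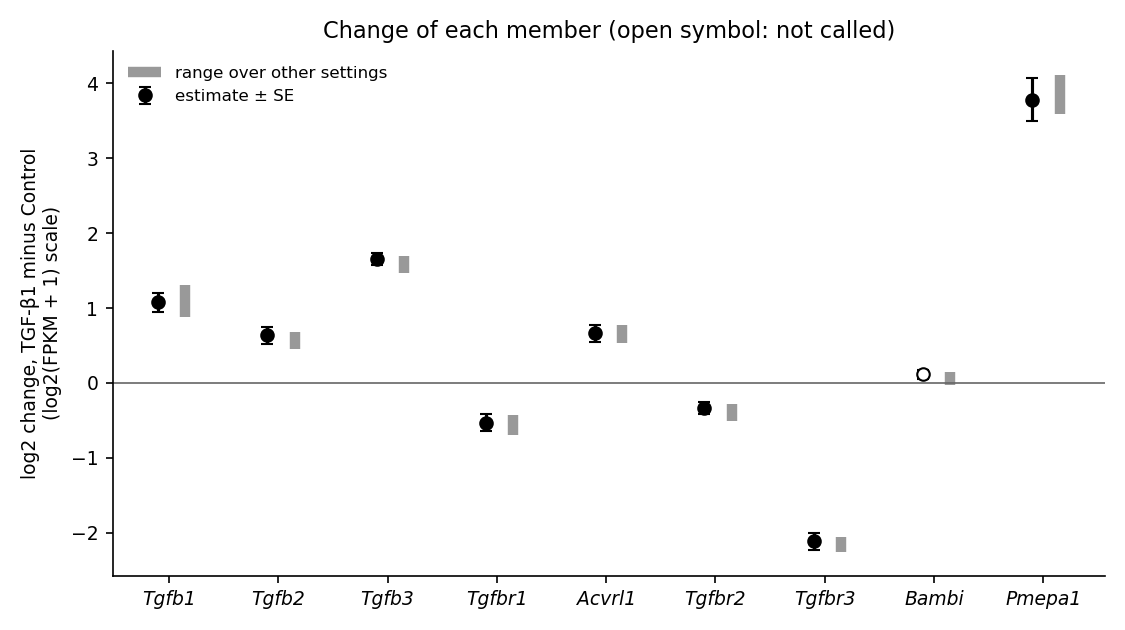
Log2 change of each member, TGF-β1 minus Control, on the log2(FPKM + 1) scale, with the SE as error bars and a grey bar for the range over the other settings tried except the pseudocount of 0.1. Changes run from -2.12 for Tgfbr3 to 3.78 for Pmepa1, and the grey bar crosses 0 for Bambi, whose open symbol marks that it was not called.

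The order of the members by FPKM differed between the groups. In Control cells it was Tgfb1, Tgfb3, Pmepa1, Tgfbr2, Tgfb2, Tgfbr1, Tgfbr3, Bambi and Acvrl1. The library ranges of 3 neighbouring pairs overlapped there, those of Tgfb3 and Pmepa1, of Tgfbr2 and Tgfb2, and of Tgfbr1 and Tgfbr3. With TGF-β1 it was Pmepa1, Tgfb3, Tgfb1, Tgfb2, Tgfbr2, Tgfbr1, Tgfbr3, Acvrl1 and Bambi, and only the ranges of Tgfb3 and Tgfb1 overlapped. Among tested genes Pmepa1 went from the 63.1th to the 96.7th percentile, Tgfb3 from the 63.4th to the 85.8th and Tgfb1 from the 73.6th to the 85.8th. Tgfbr1 went from the 43.5th to the 33.7th percentile and Tgfbr2 from the 52.0th to the 45.3th.

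The genes around these members were counted by role from a list of 91 pathway genes, of which 89 had a row and 75 were tested. Of the 75, 43 were up, 11 were down and 21 were not called, with a median log2 change of 0.51. Among the 70 with a mean of at least 1 FPKM in both groups, 40 were up and 9 down. Over all tested genes 48.1% were called, 24.5% up and 23.6% down. The counts here and by role below are to be read beside these shares. With each library rescaled by its summed FPKM over protein-coding transcripts no shorter than 300 nt, the median of all tested genes shifted to -0.19 and the pathway counts were 36 up and 14 down. The calls over all tested genes were then 2015 up and 3927 down, against 2911 up and 2810 down as deposited. The 7 called members kept their direction and call in that scaling.

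Genes that hold or release latent TGF-β had 10 up, 1 down and 4 not called of 15 tested. Ltbp2, which is among those up, was at 0.658 ± 0.308 FPKM in Control and 3.28 ± 0.679 FPKM with TGF-β1. It passed the filter only through the treated group. Thbs1, encoding the latent TGF-β activator thrombospondin-1, rose from 18.2 ± 0.343 to 221 ± 15.2 FPKM (log2 change 3.53, adjusted p by limma 3.26e-06). Ltbp4, a latent TGF-β binding protein, fell from 12.0 ± 5.34 to 4.22 ± 0.680 FPKM (log2 change -1.24, adjusted p by limma 0.0158). That call was lost without Control replicate 2, TGF-β1 replicate 2 or TGF-β1 replicate 3, with adjusted p-values up to 0.0518, and in replicates 1 and 3 alone, at 0.115. Of the extracellular binders, 3 were up, 1 was down and 1 was not called. Of the small proteoglycans in this group, Bgn (biglycan) rose from 7.53 ± 0.306 to 59.8 ± 4.75 FPKM. Dcn (decorin) fell from 104 ± 1.92 to 3.30 ± 0.472 FPKM (log2 changes 2.83 and -4.62). Fmod and Aspn, which are small proteoglycans as well, lay under the filter and were not called in the test without it.

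Of the other receptors of the family, 5 were tested, 2 were up and 1 was down. Acvr1, a type I receptor for BMPs and activins (ALK2), rose from 13.7 ± 1.18 to 44.1 ± 5.73 FPKM (log2 change 1.61, adjusted p by limma 1.46e-04). Bmpr2, the BMP type II receptor, rose from 1.35 ± 0.631 to 3.29 ± 0.181 FPKM (adjusted p by limma 0.0121), a call lost within replicates 1 and 3 (0.0871). Acvr1b, the activin type I receptor ALK4, fell from 3.09 ± 0.308 to 1.82 ± 0.143 FPKM (adjusted p by limma 0.00830). Receptor adaptors and turnover genes had 8 up, 3 down and 4 not called. Ldlrad4, a homologue of Pmepa1 listed under the older symbol D18Ertd653e, rose from 9.98 ± 0.825 to 26.7 ± 1.73 FPKM, and Usp11, a deubiquitinase reported to act on TGFBR1, fell from 14.97 ± 1.92 to 2.96 ± 0.590 FPKM (log2 changes 1.34 and -2.02).

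Among SMAD genes 7 were tested, 3 were up and 1 was down, where 24.5% of all tested genes were up and 23.6% down. The inhibitory Smad7 rose from 11.9 ± 1.84 to 39.3 ± 2.25 FPKM (log2 change 1.66). Smad1, of the BMP branch, rose from 8.42 ± 0.777 to 15.2 ± 0.180 FPKM (log2 change 0.78). The receptor-activated Smad2 and Smad3 went opposite ways. Smad2 rose from 14.9 ± 1.47 to 21.7 ± 1.84 FPKM (log2 change 0.51, adjusted p by limma 0.00825), a call lost within replicates 1 and 3 (0.0760) and after the rescaling to protein-coding rows (0.0607). Smad3 fell from 27.6 ± 1.56 to 20.7 ± 1.88 FPKM (log2 change -0.40, adjusted p by limma 0.0137), a call lost without TGF-β1 replicate 1 (0.0520). Smad4 (44.2 ± 6.58 and 52.2 ± 7.38 FPKM) and Smad5 (9.44 ± 1.56 and 8.49 ± 0.294 FPKM) were not called. Smad6 was at 19.9, 6.34 and 19.5 FPKM in Control and at 9.25, 2.92 and 8.18 FPKM with TGF-β1 and was not called (adjusted p by limma 0.158). It was called without Control replicate 2 (0.0448), when replicate 2 was fitted as a batch (7.15e-04), and in replicates 1 and 3 by themselves (0.00612). Smad9, under the filter, fell from 0.848 ± 0.202 to 0.103 ± 0.0196 FPKM in the test without it (adjusted p by limma 0.00226).

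SMAD corepressors had 2 up and 2 not called, and Skil (SnoN) rose from 2.42 ± 0.226 to 18.2 ± 1.17 FPKM (log2 change 2.49). The TAK1 branch, a kinase route beside the SMADs, had 3 up, 1 down and 2 not called. Tab1 fell from 11.3 ± 1.43 to 6.99 ± 0.554 FPKM (adjusted p by limma 0.00620, lost within replicates 1 and 3 at 0.0574). Traf4 rose from 33.2 ± 4.65 to 46.9 ± 4.59 FPKM (adjusted p by limma 0.0211), a call lost without any 1 of Control replicate 1, Control replicate 2, TGF-β1 replicate 1 and TGF-β1 replicate 3 (adjusted p up to 0.0753), within replicates 1 and 3 (0.0590) and after the rescaling to protein-coding rows (0.124).

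Of the TGF-β target genes, 10 of 12 tested were up, 1 was down and 1 was not called. Tgfbi, a secreted matrix protein, fell from 3.41 ± 0.725 to 0.611 ± 0.254 FPKM (log2 change -1.45). Targets of SMAD1 and SMAD5 had 2 up, 2 down and 2 not called. Atoh8, a transcription factor, fell from 17.7 ± 3.59 to 0.564 ± 0.0933 FPKM (log2 change -3.57). Hey1, also a transcription factor, rose from 0.4996 ± 0.131 to 2.22 ± 0.666 FPKM (log2 change 1.08). Tgfbi and Atoh8 with TGF-β1, and Hey1 in Control, had means under 1 FPKM. Each passed the filter only through its other group. So did Snai1, which is among the target genes up and was at 0.471 ± 0.201 FPKM in Control.

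**Figure D4:**
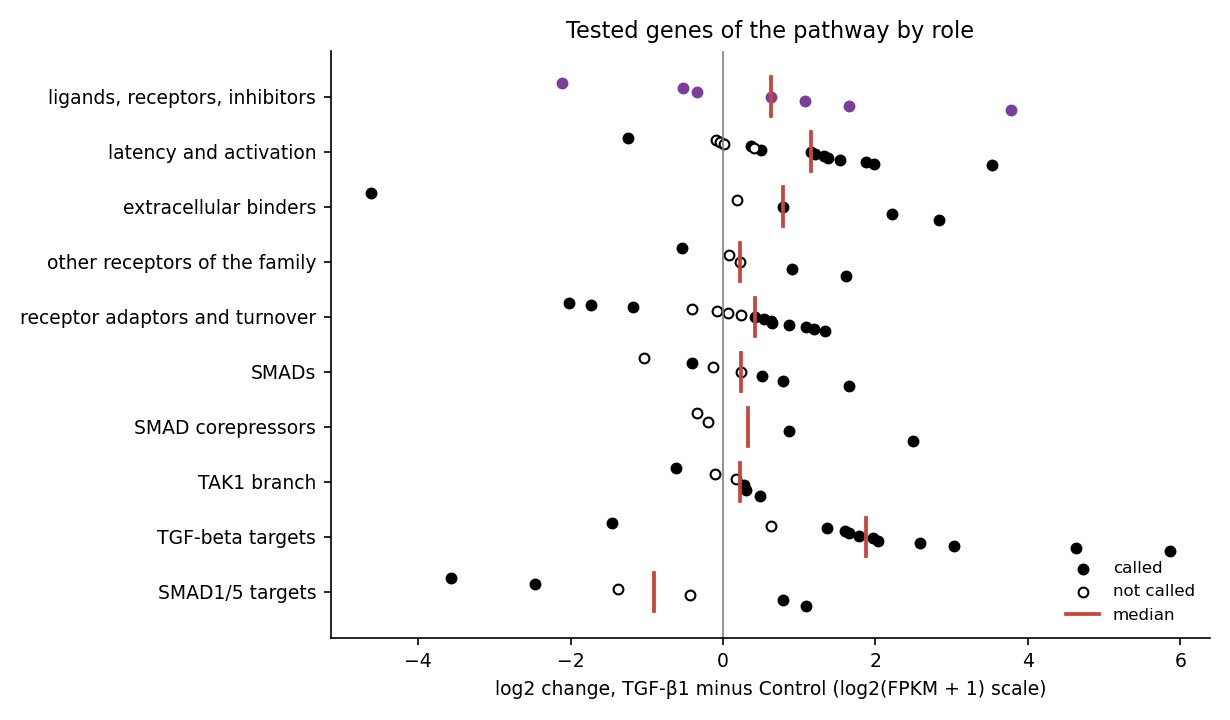
Log2 change, TGF-β1 minus Control, of each tested gene by role, with filled points for called genes, open points for genes not called and a red line at the median. The members (purple, 7 tested) span both directions, TGF-β target genes have the highest median at 1.87 and targets of SMAD1 and SMAD5 the lowest at -0.91.

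The labelled cell type was compared with its markers. Pdgfrb, a mesangial and pericyte marker, was at 32.0 to 41.1 FPKM in Control and 28.4 to 29.9 FPKM with TGF-β1. Gata3 was at 0.756 to 2.42 FPKM, and Itga8, Des and Thy1 were under 1 FPKM in every library, so 3 of the 5 mesangial markers were near absent. The macrophage markers, 8 of 10 with a row, summed to 87.4 to 118 FPKM in Control and 10.6 to 16.5 FPKM with TGF-β1. Most of the Control sum was Cd14 (78.8 to 104 and 6.77 to 8.28 FPKM). Csf1r also fell, from 6.27 ± 0.979 to 0.411 ± 0.156 FPKM (adjusted p by limma 8.56e-05), and passed the filter only through Control. Cd68 (2.79 ± 0.836 and 2.22 ± 0.448 FPKM) and Fcer1g (2.87 ± 2.22 and 3.01 ± 1.54 FPKM) were not called, and Ptprc had a listed value of 0 throughout Control. The epithelial markers, 8 of 9 with a row, summed to 128 to 162 FPKM in Control and 16.2 to 18.9 FPKM with TGF-β1. Most of the Control sum was Cdh16 (114 to 146 and 5.75 to 6.87 FPKM). Synpo fell from 12.3 ± 0.644 to 7.88 ± 0.569 FPKM and Podxl from 2.21 ± 0.239 to 1.18 ± 0.298 FPKM (adjusted p by limma 0.00242 and 0.0185). Krt18 went the other way in the test without the filter, from 0.279 ± 0.120 to 1.57 ± 0.219 FPKM (adjusted p by limma 0.00143), and Cdh1 was at most 0.123 FPKM. Both sums were lower in every treated library than in any Control library, and their part in the results was not tested.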

How the data were processed

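After quality filtering, the authors aligned the reads to mouse build mm9 with TopHat (TopHat2 2.0.11 in the submitters' processing notes) and estimated FPKM with Cufflinks. The deposited FPKM values, 1 column per library for 3 Control and 3 TGF-β1 libraries, were used as given, with no scaling between libraries stated. Whether each row sums a gene or covers only its named transcript, and whether strand was used, are not stated, so overlapping genes and genes with several transcripts are uncertain. Groups came from the treatment label and replicate numbers from the titles. No count model was run, since counts were not used here.

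Values were transformed to log2(FPKM + 1), and the 11898 rows whose mean FPKM over the libraries reached 1 entered limma (version 3.58.1, R 4.3.3; lmFit, then eBayes with trend). Tests were two-sided, and p-values were adjusted over these rows by the Benjamini-Hochberg method. The procedure was tested on simulated data. Ligand and receptor proportions were compared by exact permutation over libraries. Depth was taken as the number of fragments that made low FPKM values of single-transcript genes whole to within 0.1, at an assumed fragment length of 200 nt. It held for at least 99.4% of the 662 to 747 genes used per library, against at most 34.8% when values were jittered. Coordinates, lengths and GC content came from GENCODE M1 on mm9, in which 19699 rows were found. Pathway genes were named by a rule: per role the largest called increase and decrease without overlap, all SMADs, and the other receptors that were called, with the mesangial markers and the highest marker of each other cell type. Other markers that were near 0 or called, and the genes under other observations, were named after their values were seen. One gene that the rule named is not reported here. The members, lists and rules were chosen with earlier results of these data known. Other steps ran in Python 3.11.15 (scipy 1.17.1, pandas 2.3.3).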

Additional observations from a re-analysis of the deposited data

How the results depend on the processing

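The tests were repeated under 18 alternatives, 2 of them added after the data were seen (a correction for GC content and transcript length, and rescaling to protein-coding rows). Of the members, Tgfb1, Tgfb2, Tgfb3, Tgfbr3, Pmepa1 and Acvrl1 kept their direction and call in every alternative that gave a value. At an adjusted p under 0.01 the calls of Tgfbr1 (log2 change -0.53) and Tgfbr2 (-0.33) were lost, by construction, and 3672 genes were called in place of 5721. Tgfbr2 was also lost within replicates 1 and 3 (-0.36), where fewer samples were tested, and had -0.38 to -0.28 when 1 library was left out. Bambi, which was never called, reversed to -0.026 under the correction for GC content and length (adjusted p by limma 0.822), and the cause was not tested. Over all alternatives the number of members called was 5 to 8, of pathway genes 45 to 58, and of all genes 3672 to 6026. When 1 library was left out, these numbers were 6 to 7, 50 to 54 and 4419 to 5446. The proportions of ligands and receptors kept their direction in the 8 alternatives run for them, and none could reach a p under 0.1. The correction for GC content was not among these 8. The difference in the log2 ratio of Tgfbr2 to Tgfbr1 was 0.23, but 0.07 without Control replicate 1 and 0.36 without Control replicate 3, and that in the Tgfb1 share was -4.86 percentage points, but -2.88 without TGF-β1 replicate 2. The share of Eng among coreceptors was planned and not run. Same-numbered libraries had correlations of 0.09, 0.23 and 0.09 across genes, and that of both replicate 2 libraries was the highest of any pair. Control replicate 1 correlated better with TGF-β1 replicate 3 (0.12) than with TGF-β1 replicate 1. The numbers were therefore not taken to pair the samples, and what both replicate 2 libraries share was not tested. With the replicate block 5391 genes were called, and no call of a member was lost (Tgfbr2 adjusted p 0.0419), while Smad6 was called (0.00250). Depth limits Bambi and Acvrl1.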

Other observations

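In some regulators of the pathway, picked once their values had been seen, both replicate 2 libraries were the lowest of their group. Junb, a TGF-β-induced AP-1 subunit, was at 36.9, 7.88 and 27.4 FPKM in Control replicates 1 to 3 and at 125, 1.23 and 125 FPKM in TGF-β1 replicates 1 to 3, and it was not called (limma adjusted p 0.773). Id3, a SMAD1 and SMAD5 target, was at 82.2, 36.5 and 50.5 FPKM in Control and at 36.5, 6.26 and 32.9 FPKM with TGF-β1 (limma adjusted p 0.137). Id2 was called, at 95.6, 87.7 and 93.6 FPKM in Control and 15.6, 15.2 and 16.9 FPKM with TGF-β1 (log2 change -2.47, limma adjusted p 8.43e-06). Its replicate 2 was the lowest of both groups by only a small margin, unlike that of Junb and Id3.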
